A study of Homo sapiens with 8 samples.

Results

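The genes described here were 9 genes of the NRF2 antioxidant pathway: NFE2L2, KEAP1, NQO1, HMOX1, GCLC, GCLM, TXNRD1, SRXN1 and OSGIN1. They were chosen by name, by taking every gene probe of the array that its annotation assigns to 1 of these genes. This gave 9 probes, 1 for each gene, out of 58201 probes and 43317 gene names. KEAP1 and HMOX1 were each printed as 10 spots and the other genes as 1, so the set covered 27 of 60901 spots. A probe entered the tests if no array lacked a value for it and if some group had it well above background on its 2 arrays. Of the 9 genes, 7 met this condition, and in the whole series 21283 names did.

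The cells were SAS, an established line from a human tongue squamous cell carcinoma, named SAS in the labels and SAS/GFP (SAS cells with a GFP vector) in the paper. They received 25 nM of a synthetic miR-629-3p mimic, a miR-210-3p mimic or a miR-874-3p mimic, or 25 nM of a negative control RNA (NC), and each of these 4 groups had 2 arrays. Every group carried the same transfection reagent and, in the paper's description, the same vector, so NC is not an untreated control. The paper's methods name Dharmacon as the source of the mimics and Applied Biosystems as that of the negative control. Supplier and miRNA thus cannot be told apart in the comparisons with NC. RNA was extracted 48 h after transfection per the labels, and the paper's methods name a shorter time. All groups come from this 1 line, and a mimic adds far more of a miRNA than a cell usually makes. Each RNA was measured on its own 1-colour Agilent whole-transcriptome array. The comparisons asked which genes each of the 3 miRNAs, which the study had linked to cisplatin resistance, altered. The labels do not say that the 2 samples of a group were separate cultures, so p-values measure the spread between these samples, which may be technical. In RNA from a whole dish, a small change in every cell and a large change in some cells cannot be told apart.

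NRF2, the protein of NFE2L2, is a transcription factor that is made continuously and destroyed continuously: KEAP1 binds it and presents it to a ubiquitin ligase. Oxidants and electrophiles modify KEAP1, NRF2 then accumulates, pairs with a small MAF protein and binds the antioxidant response element of its target genes. BACH1 is a repressor that binds the same element. The targets make glutathione, reduce thioredoxin and quinones, and break down heme. Because NRF2 is controlled mainly at the level of the protein, the mRNAs of its targets are the usual readout of the pathway, which is known in squamous carcinomas for its link with resistance to drugs.

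The mature sequences of the 3 miRNAs are shown because they are what separates the 3 mimics from each other. They are from RefSeq (GRCh38.p14), printed 5′ to 3′, with the seed (bases 2 to 8, the part that pairs with a target) in capitals. The genes lie on the minus strand, at chr15:70079387-70079408, chr11:568112-568133 and chr5:137647582-137647603. The 3 seeds are different, so the mimics belong to different miRNA families.
hsa-miR-629-3p: gUUCUCCCaacguaagcccagc
hsa-miR-210-3p: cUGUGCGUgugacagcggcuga
hsa-miR-874-3p: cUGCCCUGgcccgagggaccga

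Letters that match the core of the antioxidant response element occur in some promoters of the 9 genes. The core, TGACNNNGC, was searched on both strands in the RefSeq promoter table (GRCh38.p14, 250 bases before to 50 bases after each start). It occurred in 4687 of 35116 promoters, which is 13.3%. Of the 9 genes, 8 had an entry (11 promoters), and the core occurred in 4 promoters of 3 genes, KEAP1, GCLM and TXNRD1. The stretches below, upstream of the start, hold it in capitals. Of 15 further redox genes, those named below by the rule on size of change, 10 had an entry (16 promoters), and the core occurred in 2 promoters, those of GPX2 and CREBBP. GPX2 is shown beside the others as an example. The stretch of CREBBP and that of the other TXNRD1 promoter also hold the core and are not printed. The printed stretches lie at chr19:10502784-10502835 (minus strand), chr1:93909446-93909474 (minus), chr12:104286920-104286948 (plus) and chr14:64942849-64942877 (minus). A match of these letters is a description and not a binding site, and sites outside the searched window were not looked for.
KEAP1: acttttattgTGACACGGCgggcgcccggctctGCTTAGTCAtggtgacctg
GCLM: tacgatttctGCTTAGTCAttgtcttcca
TXNRD1: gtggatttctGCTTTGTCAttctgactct
GPX2: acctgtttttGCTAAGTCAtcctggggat

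Against NC, 1 of the 7 tested genes met the threshold of the main test, and missing it does not show that a gene was unchanged. With miR-210-3p, NQO1 fell to a log2 fold change of -0.54 and was the 1 gene of the 7 that was called, which means a Benjamini-Hochberg adjusted p under 0.05 in limma over all genes tested. With miR-629-3p or miR-874-3p, 0 of the 7 genes were called by limma and 2 of them in each comparison had an unadjusted p under 0.05 in limma (KEAP1 and HMOX1, and NQO1 and OSGIN1), as had 33.6% and 16.4% of all genes. The methods' t-test after adjustment also called 0 of the 7, but in these 2 comparisons it called 0 of all 21283 genes. The background of these counts differs widely. With miR-629-3p, 9.28% of all genes were called higher and 7.47% lower. With miR-210-3p the shares were 3.85% and 2.2%, and in miR-874-3p cells they were 0.216% and 0.207%. At the study's own threshold, a 2-fold change together with an unadjusted p under 0.05, 0 of the 7 genes were called in each of the 3 comparisons, by limma or by the methods' t-test, while limma called 5.26%, 3.14% and 2.02% of all genes and the t-test 3.9%, 1.94% and 0.714%. The median log2 fold change of the 7 genes was 0.19 in miR-629-3p cells, 0.08 in miR-210-3p cells and -0.015 in miR-874-3p cells, compared to 0.02, 0.05 and -0.0058 over all genes. All 7 were higher in miR-629-3p cells than in NC cells on both arrays, and the 2 groups did not overlap, which was also true, in either direction, of 65.5% of all genes.

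**Figure D1:**
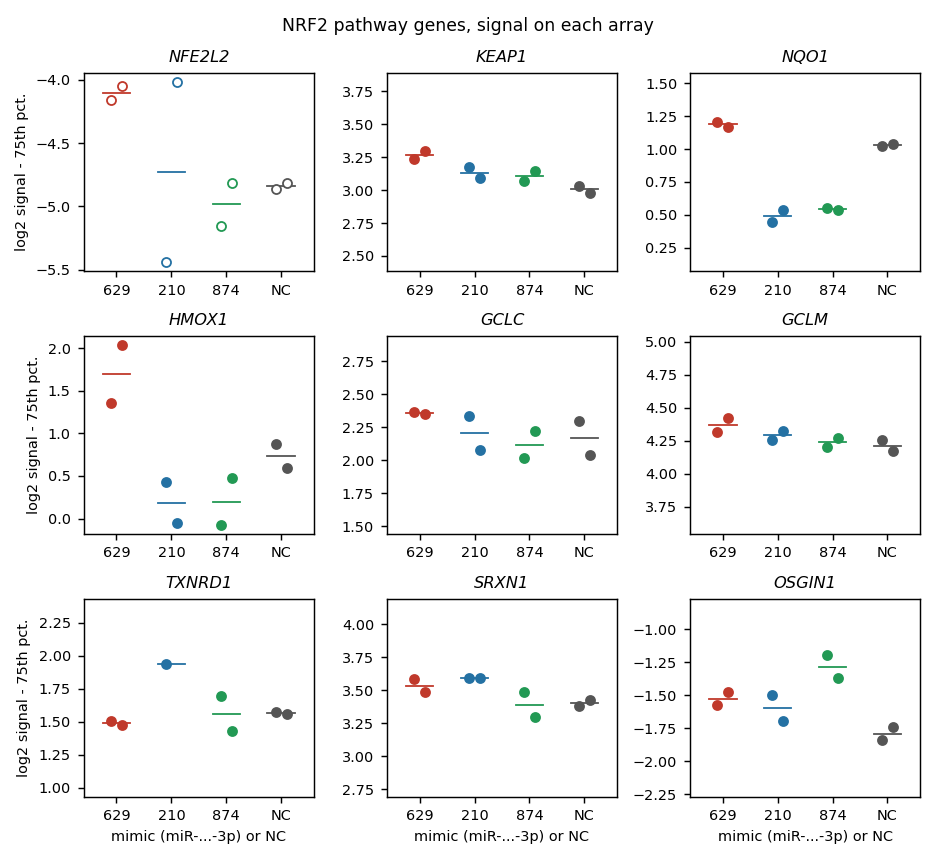
Log2 signal relative to each array's 75th percentile (vertical axis, a separate range in each panel) for the 9 genes on the 8 arrays, by mimic or negative control (NC). Points are arrays, lines are group means, open points are not well above background, and the TXNRD1 value of miR-210-3p replicate 2 was dropped. NQO1 and HMOX1 are the genes in which the miR-629-3p arrays sit above all arrays of the other 2 mimics by the widest margins.

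All levels below are log2 signals relative to the 75th percentile of the same array, and they are compared between arrays for 1 probe at a time, never between genes. NFE2L2 itself could not be followed. Its probe (chromosome 2, 178095693 to 178095752 on hg19, the build of the array's annotation, minus strand) was well above background on 0 of the 8 arrays. It read -4.16 and -4.04 in miR-629-3p cells, -5.44 and -4.02 in miR-210-3p cells, -5.15 and -4.81 in miR-874-3p cells, and -4.86 and -4.81 in NC cells. The dimmest probes that the arrays detected read between -3.74 and -2.82, so these values lie below what was measured and give no fold change. They do not show that the transcript was missing.

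KEAP1, the adaptor that marks NRF2 for destruction, was measured on every array (chromosome 19, 10597262 to 10597321, minus strand). Its signal was 3.24 and 3.29 in miR-629-3p cells, 3.17 and 3.09 in miR-210-3p cells, 3.07 and 3.14 in miR-874-3p cells, and 3.03 and 2.98 in NC cells. Both miR-629-3p arrays were the highest of the 8 and both NC arrays the lowest, within a narrow range. The difference between miR-629-3p and NC was 0.26 (SE 0.07, 95% interval 0.08 to 0.44, adjusted p = 0.0644 in limma), or 1.2-fold. It missed the threshold here and passed it in 6 of 22 alternative settings, with a log2 fold change of 0.23 to 0.32 in them. With miR-874-3p or miR-210-3p the differences from NC were 0.10 and 0.13, and neither was called.

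NQO1 makes a quinone reductase and is among the most used reporters of NRF2 activity. Its probe (chromosome 16, 69744274 to 69744333, minus strand) read 1.21 and 1.17 in miR-629-3p cells and 1.02 and 1.04 in NC cells. It read 0.44 and 0.53 in miR-210-3p cells and 0.56 and 0.54 in miR-874-3p cells. The arrays thus fell into an upper set, miR-629-3p and NC, and a lower set, miR-874-3p and miR-210-3p, with replicates at most 0.09 apart in the 4 groups. Compared to NC, NQO1 fell in miR-210-3p cells by 0.54 (SE 0.07, 95% interval -0.71 to -0.37, adjusted p = 0.0177 in limma), which is 1.45-fold. With miR-874-3p the difference was -0.48 (SE 0.07, 95% interval -0.65 to -0.31), with an adjusted p of 0.064 in limma that missed the threshold, and it passed in 3 of 22 alternatives. With miR-629-3p it was 0.16 (95% interval -0.01 to 0.33, adjusted p = 0.169). Both lower groups had nearly the same level: miR-210-3p minus miR-874-3p was -0.06, with an interval of -0.23 to 0.11, although their arrays did not overlap.

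The miR-210-3p call of NQO1 was lost in 10 of 22 alternatives, 6 of which left out 1 array. Its adjusted p rose to 0.0561 without either miR-629-3p array, to 0.119 and 0.0887 without miR-210-3p replicate 1 or 2, and to 0.0688 and 0.0755 without NC replicate 1 or 2, while the log2 fold change stayed between -0.58 and -0.49, and the call held without either miR-874-3p array (0.0204). With all arrays kept, the adjusted p was 0.0733 with no filter on detection, 0.0644 with only the 2 groups compared, 0.0519 with the replicate number as a block and 0.14 in the methods' t-test. Row 1 of the slide held both miR-629-3p arrays and both miR-210-3p arrays, and row 2 held those of miR-874-3p and NC. Row and treatment thus cannot be told apart when miR-629-3p or miR-210-3p is compared to NC or to miR-874-3p. Within a row, NQO1 differed by 0.70 between miR-629-3p and miR-210-3p and by -0.48 between miR-874-3p and NC.

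HMOX1 makes heme oxygenase, which breaks down heme, and is the classic target that BACH1 represses. Its probe (chromosome 22, 35790122 to 35790181, plus strand) read 1.36 and 2.04 in miR-629-3p cells. It read 0.42 and -0.049 in miR-210-3p cells, -0.073 and 0.47 in miR-874-3p cells, and 0.87 and 0.59 in NC cells. Both miR-629-3p arrays lay above the other 6, and both NC arrays lay above those of miR-210-3p and those of miR-874-3p. Against NC, the miR-629-3p difference was 0.96 (SE 0.31, 95% interval 0.19 to 1.74, adjusted p = 0.0916 in limma), or 1.95-fold, just under the fold threshold of 2. With miR-874-3p or miR-210-3p the differences were -0.53 (95% interval -1.31 to 0.24) and -0.55 (-1.32 to 0.23), and neither was called. The miR-629-3p difference passed the adjusted threshold in 2 of 22 alternatives, normexp background correction (0.71, adjusted p = 0.0469) and eBayes with trend (0.96, adjusted p = 0.0382).

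**Figure D2:**
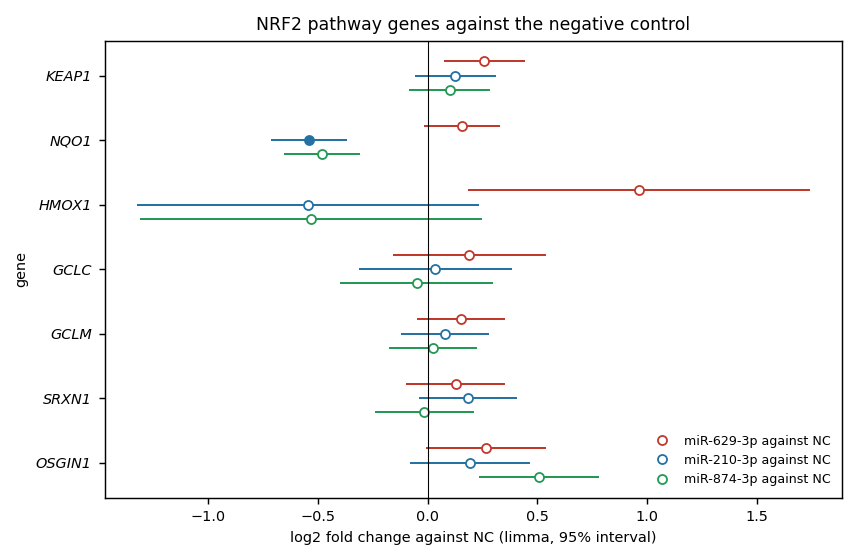
Log2 fold change of the 7 tested genes against NC, with the 95% interval from limma (horizontal axis), for the 3 mimics. The filled point, NQO1 in miR-210-3p cells at -0.54, is the only call at an adjusted p under 0.05, and the HMOX1 intervals are the widest.

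Replicate arrays lay further apart for HMOX1 than for NQO1. They differed by 0.68 in miR-629-3p cells, 0.47 in miR-210-3p cells, 0.55 in miR-874-3p cells and 0.28 in NC cells, where the median gene differed by 0.10, 0.09, 0.19 and 0.13. These gaps were larger than those of 95.9%, 91.6%, 86.6% and 75.4% of the genes tested. The repeated spots of the same probe on 1 array agreed much better, with SDs of 0.06 to 0.10 for HMOX1 and 0.04 to 0.07 for KEAP1 over 8 to 10 spots per array. The spread of HMOX1 between arrays was thus larger than that between spots. For KEAP1, the replicate arrays were only 0.05 to 0.08 apart.

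**Figure D3:**
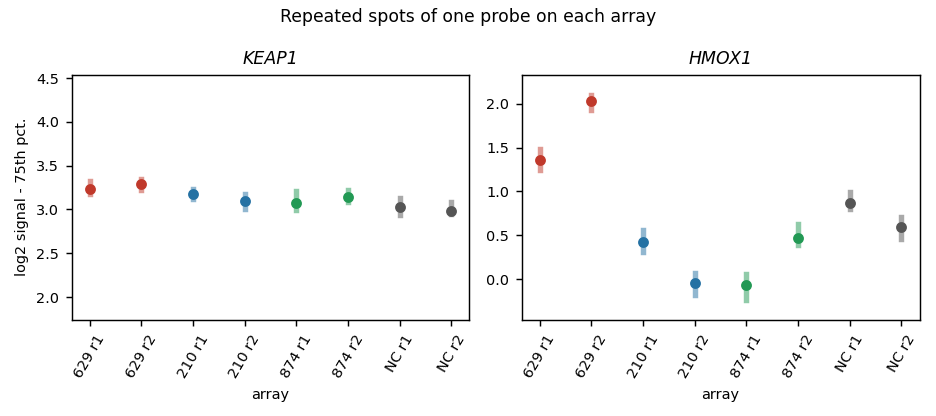
Log2 signal of the repeated spots of the KEAP1 and HMOX1 probes on each array (r1 and r2 are replicates 1 and 2; both vertical axes span the same range). Bars run from the lowest to the highest spot and points are the array's mean; for HMOX1 the replicate arrays of the 3 mimics are separated by more than the spread of their spots, with 1.36 and 2.04 in the miR-629-3p group.

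GCLC and GCLM make the catalytic and the modifier subunit of glutamate-cysteine ligase, the first step of glutathione synthesis. GCLC (chromosome 6, 53362197 to 53362256, minus strand) read 2.37 and 2.35 in miR-629-3p cells, 2.34 and 2.07 in miR-210-3p cells, 2.02 and 2.22 in miR-874-3p cells, and 2.30 and 2.04 in NC cells. GCLM (chromosome 1, 94352810 to 94352869, minus strand) read 4.31 and 4.42, 4.26 and 4.33, 4.20 and 4.27, and 4.26 and 4.17 in the same order. In both genes the miR-629-3p arrays were slightly above both NC arrays, and the other mimics overlapped NC. The miR-629-3p difference was 0.19 for GCLC (95% interval -0.15 to 0.53) and 0.15 for GCLM (-0.04 to 0.35), and neither subunit was called in any comparison. The intervals leave out a 2-fold change of either subunit against NC with all 3 mimics.

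TXNRD1 makes thioredoxin reductase. Its probe (chromosome 12, 104732949 to 104733008, plus strand) read 1.50 and 1.47 in miR-629-3p cells, 1.94 on the single usable miR-210-3p array, 1.70 and 1.43 in miR-874-3p cells, and 1.58 and 1.56 in NC cells. On miR-210-3p replicate 2 the scanner software flagged the spot as an outlier, so the value was dropped and the gene left the main tests. With the flagged spot kept, that array read 3.43 and the other 7 arrays lay between 1.37 and 1.93. On the 7 usable arrays, an alternative chosen after the missing value was seen, miR-210-3p was 0.37 above NC (SE 0.14, adjusted p = 0.181 in limma), a value that rests on 1 array. The differences from NC were -0.08 in miR-629-3p cells and -0.0062 in miR-874-3p cells.

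SRXN1 makes sulfiredoxin, which repairs over-oxidised peroxiredoxins. It read (chromosome 20, 627563 to 627622, minus strand) 3.58 and 3.48 in miR-629-3p cells, 3.59 and 3.59 in miR-210-3p cells, 3.48 and 3.30 in miR-874-3p cells, and 3.38 and 3.43 in NC cells. Both miR-629-3p arrays and both miR-210-3p arrays were above NC, by 0.13 (95% interval -0.09 to 0.35) and 0.18 (-0.04 to 0.41) on average, and neither difference was called. The miR-874-3p arrays lay on either side of NC.

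OSGIN1, an oxidative stress-induced growth inhibitor, showed another order. Its probe (chromosome 16, 83999149 to 83999208, plus strand) read -1.20 and -1.37 in miR-874-3p cells, the 2 highest values, and -1.84 and -1.74 in NC cells, the 2 lowest. It read -1.57 and -1.48 in miR-629-3p cells and -1.50 and -1.70 in miR-210-3p cells. The difference between miR-874-3p and NC, which share a slide row, was 0.51 (SE 0.11, 95% interval 0.24 to 0.78, unadjusted p = 0.00386, adjusted p = 0.124 in limma), or 1.42-fold. It was higher on 2 of 2 arrays and was not called in any of the 22 alternatives. The miR-874-3p group thus had opposite signs for OSGIN1 and for NQO1.

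When the mimics were compared with each other, 2 of the 7 genes were called in each comparison of miR-629-3p with another mimic, and both were the same genes. This share stands beside backgrounds of 22.6% of all genes between miR-629-3p and miR-210-3p and 16.2% between miR-629-3p and miR-874-3p, each in both directions together. NQO1 was higher in miR-629-3p cells than in miR-210-3p cells by 0.70 (SE 0.07, 95% interval 0.53 to 0.87, adjusted p = 0.00461 in limma) and than in miR-874-3p cells by 0.64 (SE 0.07, 95% interval 0.47 to 0.81, adjusted p = 0.00663). HMOX1 was higher by 1.51 (SE 0.31, 95% interval 0.73 to 2.28, adjusted p = 0.0244) and by 1.50 (SE 0.31, 95% interval 0.72 to 2.27, adjusted p = 0.0307), which is 2.85-fold and 2.82-fold. The 2 comparisons share the miR-629-3p arrays, and the one with miR-874-3p crosses the slide rows. Between miR-210-3p and miR-874-3p, 0 of the 7 genes were called by limma, beside 9.8% of all genes, and 1, OSGIN1 at -0.31, had an unadjusted p under 0.05, beside 28.3%. Across all 4 groups, the F test of limma called NQO1 (adjusted p = 0.00733) and HMOX1 (adjusted p = 0.0443) of the 7 genes and 25.2% of all genes.

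These 2 genes differed in how firmly the calls held. For NQO1, the miR-629-3p against miR-210-3p call, made within slide row 1, was lost in 1 of 22 alternatives, the methods' t-test. The call against miR-874-3p was lost in 3, 1 of them without miR-629-3p replicate 1 (adjusted p = 0.0528). For HMOX1, the call against miR-210-3p was lost in 6 and that against miR-874-3p in 10. The first had adjusted p-values of 0.0526 and 0.103 without miR-629-3p replicate 1 or 2 and of 0.0718 and 0.12 without miR-210-3p replicate 1 or 2. The second had 0.0632 and 0.125 without miR-629-3p replicate 1 or 2, 0.106 without miR-874-3p replicate 1, 0.0545 without either miR-210-3p array and 0.0532 without either NC array. Its direction was the same throughout, with log2 fold changes of 1.15 to 1.84 as single arrays were left out.

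The 9 genes are a small sample of the redox network, so 96 further genes were listed by role (7 lists), of which 94 were on the array and 84 were tested. Against NC, miR-629-3p gave 18 genes called higher and 8 lower, miR-210-3p gave 1 higher and 2 lower, and miR-874-3p gave 0 higher and 1 lower. Over all genes, the shares called higher and lower were 9.28% and 7.47%, 3.85% and 2.2%, and 0.216% and 0.207% in the same order. AKR1C1 and UCP2, both among the 18, entered the tests only because the miR-629-3p arrays had them well above background. The median log2 fold changes of the 84 genes were 0.05, -0.05 and -0.08, beside 0.02, 0.05 and -0.0058 over all genes, so that the medians lay close to those of the array. At the study's threshold, 9, 3 and 2 of the 84 were called by limma, and 8, 1 and 1 by the methods' t-test, with the shares of all genes given above for each. The count in miR-629-3p cells was sensitive to single arrays: it was 3 or 4 without replicate 1 or 2 of miR-629-3p, 14 without either miR-210-3p array, and 14 or 5 without replicate 1 or 2 of NC.

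**Figure D4:**
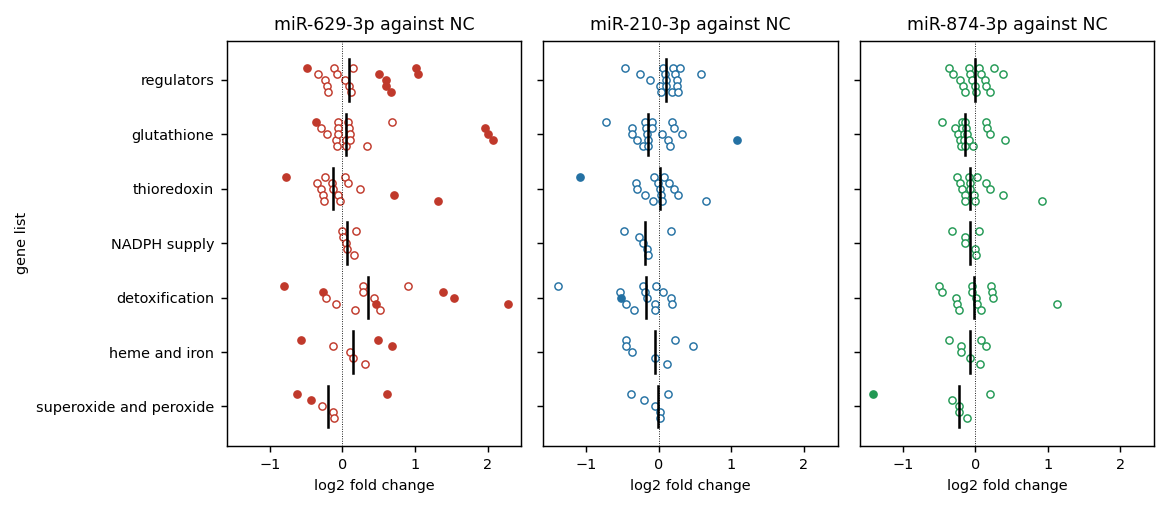
Log2 fold change (horizontal axis) of the 84 tested redox genes outside the 9, by list, for each mimic against NC. Points are genes, filled where the adjusted p was under 0.05, and vertical bars are list medians; the miR-629-3p panel holds 26 filled points, against 3 in miR-210-3p cells and 1 in miR-874-3p cells.

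Among these lists, glutathione genes held the largest fold changes against NC of genes that were well above background in both groups. In the list of 26 genes around glutathione, 19 were tested and miR-629-3p raised 3 and lowered 1 (median 0.05), beside 9.28% and 7.47% of all genes. SLC7A11, the cystine transporter that feeds glutathione synthesis and a known NRF2 target, read 5.21 and 5.14 in miR-629-3p cells, against 2.78 and 2.81 in miR-210-3p cells, 3.25 and 3.48 in miR-874-3p cells and 3.15 and 3.18 in NC cells. It rose in miR-629-3p cells by 2.01 (SE 0.10, adjusted p = 0.00098 in limma), and both miR-629-3p arrays were far above the other 6. CHAC1, an enzyme that breaks glutathione down, read 4.33 and 4.23 in miR-629-3p cells, 3.29 and 3.25 in miR-210-3p cells, 2.55 and 2.17 in miR-874-3p cells and 1.92 and 2.48 in NC cells. CHAC1 rose by 2.08 (SE 0.21, adjusted p = 0.00629) in miR-629-3p cells and by 1.07 (SE 0.21, adjusted p = 0.0485) in miR-210-3p cells. A second CHAC1 probe rose by 2.22 in miR-629-3p cells. In miR-210-3p cells it rose by 1.03 and just missed the threshold (adjusted p = 0.0508 in limma with every probe tested). A gene that feeds glutathione synthesis and one that degrades glutathione were thus both called higher in miR-629-3p cells.

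GPX2, a glutathione peroxidase of epithelia whose promoter core is printed above, read 0.53 and 0.47 in miR-629-3p cells and -1.22 and -1.71 in NC cells, and rose by 1.96 (SE 0.18, adjusted p = 0.00547 in limma). It read -2.17 and -2.23 in miR-210-3p cells and -1.63 and -1.35 in miR-874-3p cells. The miR-210-3p arrays were the lowest of the 8, at -0.74 from NC, which was not called (adjusted p = 0.0733). Set directly against the other mimics, SLC7A11 was higher in miR-629-3p cells by 2.38 and 1.81, and GPX2 by 2.70 and 1.99, and all 4 differences were called. SLC7A11 was also lower in miR-210-3p cells than in miR-874-3p cells, by 0.57 on the log2 scale (adjusted p = 0.0264).

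**Figure D5:**
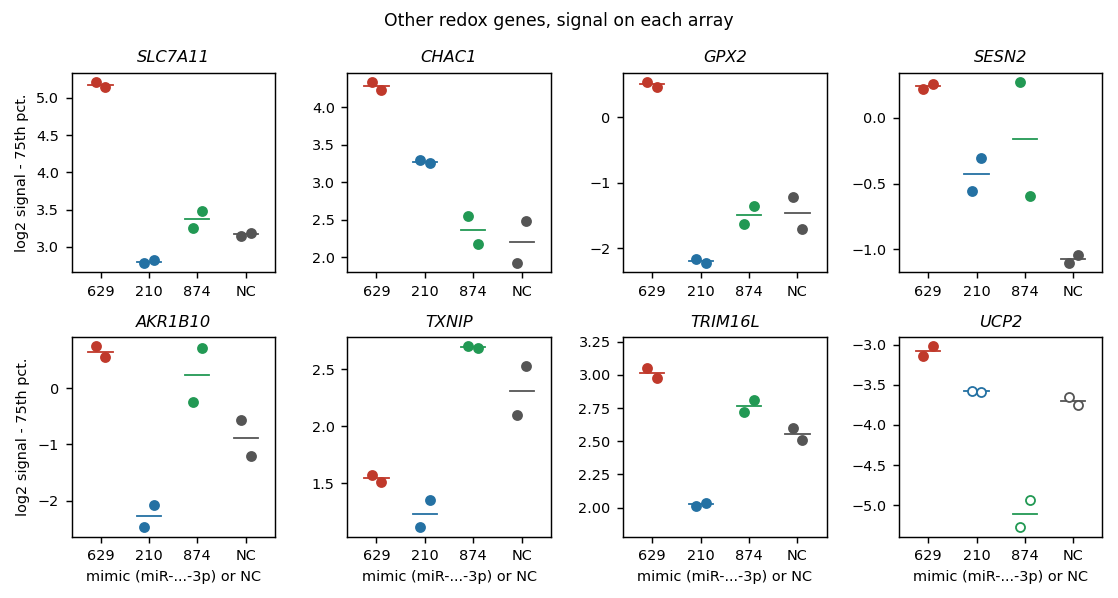
Log2 signal relative to each array's 75th percentile (vertical axis, a separate range in each panel) of 8 further redox genes on the 8 arrays, by mimic or NC. Points are arrays, lines are group means and open points are not well above background; in SLC7A11, CHAC1 and GPX2 both miR-629-3p arrays lie above the other 6, whereas TXNIP is lowest in miR-210-3p cells.

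Among detoxification enzymes, 14 were tested, and miR-629-3p gave 4 calls upward and 2 downward (median 0.36), beside 9.28% and 7.47% of all genes. AKR1B10, an aldo-keto reductase and NRF2 target, read 0.74 and 0.56 in miR-629-3p cells, -2.48 and -2.08 in miR-210-3p cells, -0.25 and 0.71 in miR-874-3p cells, and -0.56 and -1.22 in NC cells. It rose in miR-629-3p cells by 1.54 (SE 0.37, adjusted p = 0.0448 in limma). Between miR-629-3p and miR-874-3p the difference was 0.42, which was not called, and their arrays overlapped. Both miR-210-3p arrays were the lowest of the 8. Their mean lay below miR-629-3p by 2.93 (adjusted p = 0.00732) and at -2.51 from miR-874-3p (SE 0.37, adjusted p = 0.0204). A second AKR1B10 probe differed from NC by 1.52 for the miR-629-3p mimic, by -1.32 for miR-210-3p and by 0.18 for miR-874-3p. The last of these was 1.12 on the probe used, so the size of the gap to miR-874-3p depended on the probe. AKR1C1, a relative, was well above background on both miR-629-3p arrays (-2.23 and -2.42) and on no other. It was at least 1.42-fold higher than in NC cells. For this bound the NC arrays were each set at the dimmest detected signal or at the probe's own, whichever was higher. The gene entered the tests only through the miR-629-3p arrays, so its call as higher there was not independent of that filter. AKR1C1 is nearly identical to other AKR1C genes, so the probe may read more than 1 of them. TRIM16L read 3.05 and 2.98 in miR-629-3p cells, 2.02 and 2.04 in miR-210-3p cells, 2.72 and 2.81 in miR-874-3p cells, and 2.60 and 2.51 in NC cells. It rose by 0.46 in miR-629-3p cells (adjusted p = 0.0168) and fell by 0.53 on the log2 scale in miR-210-3p cells (adjusted p = 0.0238). CBR3, a carbonyl reductase, fell by 0.81 (SE 0.14, adjusted p = 0.0201) in miR-629-3p cells, so enzymes of this list moved both ways. The remaining calls with miR-629-3p were AKR1B1, higher by 1.38 (adjusted p = 0.0105 in limma), and PTGR1, at -0.26 (adjusted p = 0.0484). Both were named after their values were seen.

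The regulators of NRF2 held 6 higher and 1 lower gene among 17 tested in miR-629-3p cells (median 0.10), beside 9.28% and 7.47% of all genes. CREBBP, a coactivator, rose by 1.04 (SE 0.09, adjusted p = 0.00537 in limma), from 0.70 and 0.63 in NC cells to 1.80 and 1.62. MAFK, a small MAF partner of NRF2, rose by 1.01 (SE 0.25, adjusted p = 0.0461), from 2.27 and 1.79 in NC cells to 2.90 and 3.19. The other 5 that were called are named after their values were seen. BTRC, an adaptor through which a ubiquitin ligase can mark NRF2 for destruction, rose by 0.67 (adjusted p = 0.0237), EP300, a coactivator, by 0.60, MAFG, another partner, by 0.59 and SQSTM1, which competes for KEAP1, by 0.51, while BACH1 fell by 0.49 (adjusted p = 0.01). With miR-874-3p or miR-210-3p, 0 of the 17 regulators were called by limma, while 3 and 6 of them had an unadjusted p under 0.05, beside 16.4% and 26.0% of all genes.

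In the thioredoxin list, 15 genes were tested, and 2 were higher and 1 lower in miR-629-3p cells (median -0.13), beside 9.28% and 7.47% of all genes. SESN2, which is known to help clear KEAP1, rose by 1.32 in miR-629-3p cells (SE 0.28, adjusted p = 0.031 in limma), from -1.11 and -1.04 in NC cells to 0.22 and 0.26. Its miR-210-3p arrays were also above NC, by 0.64 on average (adjusted p = 0.214). Those of miR-874-3p were above NC by 0.91 (adjusted p = 0.206), although its replicates there, 0.27 and -0.60, were far apart. The miR-629-3p level was not called different from miR-210-3p (0.67, adjusted p = 0.139). Nor was it from miR-874-3p (0.40, adjusted p = 0.37), whose arrays it overlapped. TXNIP, the inhibitor of thioredoxin, fell with both miR-629-3p (-0.77, SE 0.16, adjusted p = 0.03) and miR-210-3p (-1.08, SE 0.16, adjusted p = 0.0255). It read 1.57 and 1.51 in miR-629-3p cells, 1.11 and 1.35 in miR-210-3p cells, 2.70 and 2.69 in miR-874-3p cells, and 2.10 and 2.53 in NC cells. With miR-874-3p it was 0.38 above NC, which was not called, and 1.15 and 1.46 above the levels of miR-629-3p cells and of miR-210-3p cells, both called.

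Of the heme and iron genes, 7 were tested, and 2 rose and 1 fell in miR-629-3p cells (median 0.15), beside 9.28% and 7.47% of all genes. SLC48A1, a heme transporter, rose by 0.69 (SE 0.10, adjusted p = 0.0147 in limma), although a second probe of it rose by only 0.32 (adjusted p = 0.0367 with every probe tested), and FTH1, the ferritin heavy chain, was the other one that rose (0.49, adjusted p = 0.0426; named after its value was seen). BLVRB, a biliverdin reductase downstream of HMOX1, fell by 0.57 in miR-629-3p cells (SE 0.11, adjusted p = 0.0252). Its arrays for the other mimics were also all below NC, without a call. The differences were -0.45 for miR-210-3p (adjusted p = 0.074) and -0.36 for miR-874-3p (adjusted p = 0.21). Set against these mimics in the same order, miR-629-3p differed by -0.12 (adjusted p = 0.473) and -0.21 (adjusted p = 0.246), and neither was called. In the superoxide and peroxide list, 6 were tested, and 1 was higher and 2 lower in miR-629-3p cells (median -0.20), beside the same shares of all genes. SOD2, the mitochondrial superoxide dismutase, fell by 0.62 in miR-629-3p cells (SE 0.09, adjusted p = 0.0125), from 4.65 and 4.69 in NC cells to 4.09 and 4.0. OXSR1 was the other one that fell (-0.44, adjusted p = 0.0448 in limma, named after its value was seen), and UCP2 the one called higher. UCP2 entered the tests only through the miR-629-3p arrays, so this call was not independent of that filter. UCP2 was also the 1 gene of the 84 called in miR-874-3p cells (adjusted p = 0.0255), but it was not well above background on any miR-874-3p or NC array and has no fold change. Of the 6 genes that supply NADPH, 0 were called with any mimic by limma, and 0, 2 and 0 had an unadjusted p under 0.05 for miR-629-3p, for miR-210-3p and for miR-874-3p, beside 33.6%, 26.0% and 16.4% of all genes. With miR-629-3p their log2 fold changes ran from -0.005 to 0.18.

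Some genes of these lists are known targets of the amino acid and unfolded protein stress pathway as well, among them CHAC1, SLC7A11 and SESN2. In a list of 12 genes of that pathway, 4 were called higher, 1 lower and 7 not at all in miR-629-3p cells (median 0.27). Over all genes, 9.28% were called higher and 7.47% lower. DDIT3, its proapoptotic factor, rose by 1.48 (SE 0.07, adjusted p = 0.00088 in limma) in miR-629-3p cells and by 0.45 (adjusted p = 0.0255) in miR-210-3p cells. DDIT4, the gene called lower, had log2 fold changes of -1.37 (adjusted p = 0.0104) and -1.06 (adjusted p = 0.0331) in the same order. Both were named after their values were seen. The part of this pathway in the changes of the redox genes was not tested. In a list of 12 interferon and RNA sensing genes, 11 were tested, and 5 were higher in miR-629-3p cells and 2 lower in miR-210-3p cells. These counts stand beside 9.28% of all genes called higher with miR-629-3p and 2.2% called lower with miR-210-3p. The part of the interferon genes in the result was not tested either.

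The genes whose pattern over the 8 arrays was most like that of NQO1 were ABCA13 (Pearson r = 0.991), HSD17B4 (0.991) and ATF7IP (0.984), and 159 genes had an r above 0.9. For HMOX1 they were NECAB3 (0.986), DGKG (0.983) and the transcript ENST00000605188 (0.977), with 343 genes above 0.9. These are descriptions over 8 arrays in 4 groups, which share 1 slide, and no p is given. ABCA13 was well above background on only 3 of the 8 arrays, so its r rests largely on values below what was measured, while the other 5 genes were well above background on all 8. NQO1 and HMOX1 had an r of 0.82 with each other, NQO1 and OSGIN1 one of -0.43, and KEAP1 and GCLM one of 0.83.

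Between 41.82% and 49.82% of the probes were well above background on an array, with the share lowest on the NC arrays and highest on the miR-629-3p arrays, and 0 spots were saturated. The part of this difference in the results was not tested. The 7 tested genes were all well above background on all 8 arrays. Of 10 markers of squamous epithelium, 10 were detected on all 8 arrays, although their levels moved: 1 was called higher and 3 lower in miR-629-3p cells, and 4 lower in miR-210-3p cells, among them KRT14 in both (-0.66 and -1.11). Of the fibroblast markers, 4 of 6 were detected on 0 arrays, while 2 of 4 leukocyte and 2 of 5 endothelial markers were detected on all 8. Of these 3 lists, PDGFRB was called higher in miR-629-3p cells (0.47) and in miR-210-3p cells (0.50), and VWF in miR-629-3p cells (0.90). The part of these markers in the results was not tested. With 2 arrays per group, precision is limited throughout by that number.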

How the data were processed

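Transcriptomes of 8 samples were measured on 1-colour arrays. The intensities deposited by the authors are the output of Agilent Feature Extraction 11.5.1.1 (per the labels): for each spot a background-subtracted processed signal, mean and background pixel intensity, and flags (other values deposited) for outliers and for signal well above background. No normalization between arrays had been applied to them. A second deposited table, of log2 values, equalled log2 processed signal minus a constant for each array to within 5e-05 (median per array -3.68 to -3.36; constants near the 75th percentile, -0.0488 to 0.0039 from the one used here) and was used as an alternative.

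Spots flagged as outliers (87 to 346 per array) were dropped, log2 signals of a probe averaged, and each array's 75th percentile subtracted. The brightest probe of each gene name was used. Groups were compared in R 4.3.3 with limma 3.58.1, in 1 fit of the 8 arrays with no covariate (4 residual and 1.68 prior degrees of freedom), after a check on simulated data, with Benjamini-Hochberg adjustment over 21283 genes. The paper names a t-test and ANOVA in general, and these were alternatives. All arrays lay on 1 slide scanned at 1 time. Replicate numbers are shared by the groups, and the main fit did not pair the arrays by them.

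The members, gene lists and tests were chosen with earlier results of these data known. Of the lists, the genes named were, per comparison with NC, up to 4 with the largest change in each direction among those called and up to 2 called per list, and for NQO1 and HMOX1 the 3 genes with the highest correlation. Alternatives covered background correction, normalization, flags, filters, probes, variance model, pairing and left-out arrays. Probe positions are the array's own (hg19), and no hg19 gene models were used here, so exon and UTR are not given. Sequences are from RefSeq tables, in which HMOX1 has no promoter entry.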

Additional observations from a re-analysis of the deposited data

How the results depend on the processing

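Over 22 alternatives, NQO1 and HMOX1 kept their direction in each comparison with NC and between miR-629-3p and the other mimics. The number of the 7 genes called depended on the setting. With miR-629-3p against NC it rose from 0 to 1 with the deposited values, with outlier spots kept, with quantile normalization and with detection required on all 8 arrays, and to 2 with normexp background correction and with eBayes with trend. With miR-210-3p against NC it fell from 1 to 0 with no filter on detection, with only the 2 groups compared and with the methods' t-test. With miR-874-3p against NC it rose from 0 to 1 with normexp, trend and detection on all 8 arrays. Between miR-629-3p and miR-210-3p it fell from 2 to 1 with no filter and to 0 with the t-test, between miR-629-3p and miR-874-3p from 2 to 0 with only the 2 groups compared and with the t-test, and in the F test from 2 to 1 with no filter and with ANOVA. As single arrays were left out, these counts ran from 0 to 0 (miR-629-3p), 0 to 1 (miR-210-3p) and 0 to 0 (miR-874-3p) against NC, from 1 to 2 and from 0 to 2 between miR-629-3p and miR-210-3p or miR-874-3p, and from 1 to 2 in the F test. Where 1 array of a group is left, its spread is taken from the other groups.

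Of the 84 further genes, those called with miR-629-3p fell from 26 to 17 with only the 2 groups compared and 0 with the t-test, and ran from 3 to 30 with single arrays left out. With miR-210-3p the 3 calls became 18 with trend, 16 with normexp, 12 with detection on all 8 arrays, 5 with every probe, 5 with a floor at the dimmest detected signal, and 0 with no filter, with the 2 groups alone and with the t-test, and ran from 0 to 12 with arrays left out. With miR-874-3p the 1 call became 0 with the floor, no filter, detection on all 8 arrays, the 2 groups alone and the t-test, and ran from 0 to 2. In these changes the cause was not tested, except that the t-test has fewer degrees of freedom and the unfiltered test covers 42661 genes. With no filter the median of all genes moved to -0.17, -0.112 and -0.091 for the 3 mimics.

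Signs turned only for differences near 0 that were not called. HMOX1 between miR-210-3p and miR-874-3p turned to 0.021 with the deposited values, 0.020 with outlier spots kept and 0.015 with quantile normalization, and ran from -0.29 to 0.26 with arrays left out. SRXN1 with miR-874-3p turned to 0.020 with normexp and 0.0058 with quantile normalization, and ran from -0.11 to 0.078. GCLC ran from -0.095 to 0.17 with miR-210-3p and from -0.18 to 0.078 with miR-874-3p, and GCLM from -0.020 to 0.068 with miR-874-3p.

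With the replicate number as a block, the pathway calls against NC were 15 (miR-629-3p), 1 (miR-210-3p) and 0 (miR-874-3p), the NQO1 call with miR-210-3p was lost (0 of the 7 genes called, adjusted p = 0.0519), HMOX1 lost its call between miR-629-3p and miR-874-3p (1 called, adjusted p = 0.0613), and the F test called 1. The block moved the calls over all genes from 3565, 1288 and 90 to 2045, 491 and 42. Replicate differences over all genes correlated between groups at -0.106 to 0.034. Such values cannot show whether samples of the same number were handled together. Signal over background limits NFE2L2, which was not measured.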
